A study of Mus musculus with 4 samples.

Results

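Adipocyte progenitors are stromal cells of fat that can divide and turn into adipocytes, and 10 genes that mark them or set their fate were examined in brown adipose tissue (BAT): Pdgfra, Pdgfrb, Ly6a, Cd34, Cd24a, Dpp4, Pi16, Icam1, Dlk1 and Zfp423. The genes were chosen by symbol, and each was found on 1 of the 55387 rows listed in every library. RNA sequencing was performed on whole BAT of 4 male mice aged 15 weeks, with 1 library per mouse and 2 mice per genotype, the controls being littermates of the Sox4-MKO mice. The controls are titled SOX4FF and given the genotype WT in the labels and are called Sox4f/f in the study, which names no Cre for them. Both genotypes thus carried floxed Sox4 alleles. In Sox4-MKO mice Sox4f/f was combined with a Cre driven by the Myf5 gene, which is active in the lineage of brown adipocytes and skeletal muscle, so other cells of the tissue keep Sox4 by design. The labels call the material adipocytes of BAT, but it was tissue: the endothelial gene Pecam1 (33.6 to 41.6 FPKM) and the collagen gene Col3a1 (85.8 to 242 FPKM) were present beside the brown adipocyte gene Ucp1 (733 to 1935 FPKM) in every library.

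In fat, progenitors lie along vessels and in the connective tissue between lobules. Platelet-derived growth factor (PDGF) receptors mark much of this stroma. Dpp4 and Pi16 mark uncommitted cells of the interstitium, Icam1 and Dlk1 mark cells committed to the adipocyte fate, and Zfp423 is a zinc finger factor that commits cells to the adipocyte lineage and restrains thermogenic genes in white fat. Myf5-lineage precursors form the brown adipocytes of the interscapular depot, while many stromal cells of the same depot have other origins.

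Values are FPKM, in which the fragments of a gene are divided by the length of its transcript and by the size of the library. The estimated depth was 12100000 to 16200000 fragments per library, and no error was computed for it. Sox4 itself was 1.98 and 1.06 FPKM in Sox4f/f mice 1 and 2, whereas the libraries that carry the Sox4-MKO label had 0.981 and 3.06 FPKM for mice 1 and 2. The genotypes overlapped and the difference was 0.20 ± 0.43 (log2, SE, adjusted p = 0.843), so the targeted gene was not lower under the label, and every direction given here is that between libraries as labelled. Skeletal muscle RNA set the libraries apart: the 8 muscle markers summed to 202 and 747 FPKM in Sox4f/f and to 14480 and 2487 FPKM in Sox4-MKO. In bulk tissue, more cells of a type and more RNA per cell cannot be told apart. The log2 differences below were taken between the genotype means of log2(FPKM + 1) by limma, with Benjamini-Hochberg (BH) adjustment over 12877 rows, and they understate changes of low genes.

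**Figure D1:**
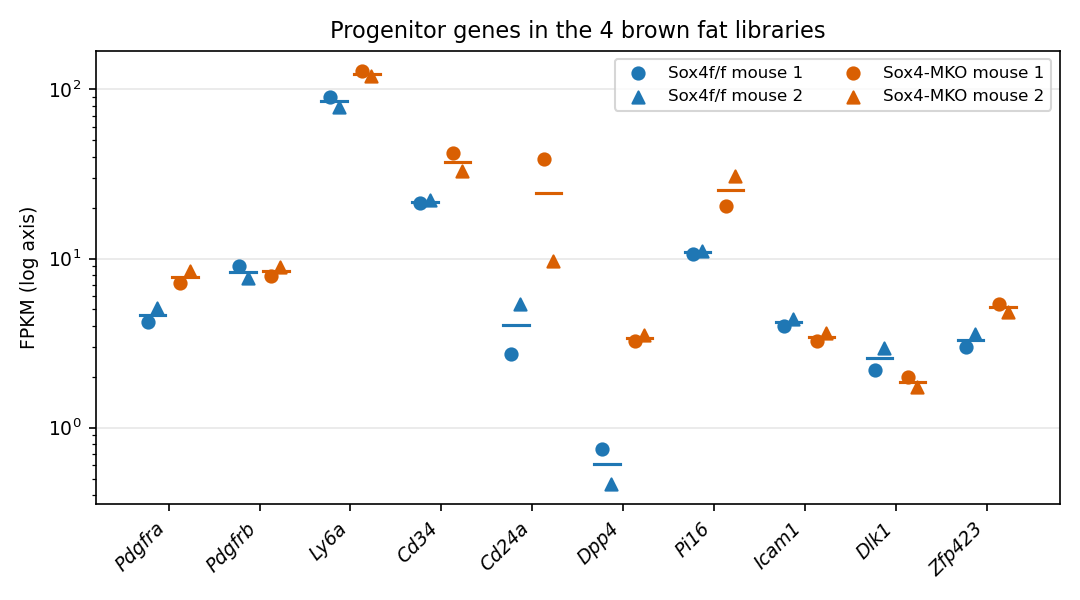
FPKM, on a log axis, of the 10 progenitor genes in each of the 4 libraries, with 1 point per mouse (circle for mouse 1, triangle for mouse 2) and a bar at each genotype mean (n = 2 mice per genotype). For 7 genes both points labelled Sox4-MKO lie above both Sox4f/f points, for Dlk1 and Icam1 they lie below, and for Pdgfrb they overlap.

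Of the 10 genes, 7 were higher in the Sox4-MKO libraries at an unadjusted p below 0.05 (Pdgfra, Ly6a, Cd34, Dpp4, Pi16, Zfp423 and Cd24a) and none was lower, against 7.95% of all tested rows that were higher and 8.28% that were lower at the same limit. None passed after BH adjustment in limma, as was the case for 0% of all rows, whose smallest adjusted p was 0.191. The genotypes did not overlap for the same 7 genes in the higher direction and for Dlk1 and Icam1 in the lower direction, against 21.7% and 29.6% of all rows, or 51.3% in either direction. The median difference was 0.59 over the 10 genes and -0.05 over all rows (log2). All 10 genes had an averaged FPKM above 1 in a genotype and were tested, but Dpp4 reached that limit only through Sox4-MKO, so its presence in the count follows in part from its difference. With no such limit on FPKM, Zfp423 had an unadjusted p of 0.062 in limma and 6 genes stayed below 0.05. The count was 5 without Sox4-MKO mouse 1, the library richest in muscle RNA, and 5 without Sox4-MKO mouse 2. It was 3 without Sox4f/f mouse 1 and 4 without Sox4f/f mouse 2. With 2 mice against 2, the smallest p of an exact two-sided permutation test is 0.333, so no single gene could pass one.

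The levels spanned a wide range. In Sox4f/f the order of the means ran from Ly6a (85.1 FPKM) through Cd34 (21.7), Pi16 (10.9), Pdgfrb (8.33), Pdgfra (4.65), Icam1 (4.19), Cd24a (4.04), Zfp423 (3.29) and Dlk1 (2.57) to Dpp4 (0.608). The values of Cd24a overlapped those of Pdgfra, Icam1, Zfp423 and Dlk1, and those of Pdgfra overlapped those of Icam1, so this stretch of the order was not resolved. In Sox4-MKO the order was Ly6a (124 FPKM), Cd34 (37.4), Pi16 (25.6), Cd24a (24.4), Pdgfrb (8.43), Pdgfra (7.8), Zfp423 (5.14), Icam1 (3.45), Dpp4 (3.4) and Dlk1 (1.86). There the neighbours Pi16 and Cd24a, Pdgfrb and Pdgfra, and Icam1 and Dpp4 overlapped between mice.

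Pdgfra encodes the receptor for PDGF-A and PDGF-C that marks adipocyte progenitors and fibroblasts (GRCm38 chr5:75152292-75198215, plus strand). It was measured at 4.22 and 5.07 FPKM in the controls, mice 1 and 2, and at 7.17 and 8.44 FPKM in Sox4-MKO mice 1 and 2. Both Sox4-MKO libraries lay above both controls. The means were 4.65 ± 0.604 and 7.8 ± 0.899 FPKM (SD, n = 2 each), a ratio of 1.68, and the log2 difference was 0.64 ± 0.18 (SE, unadjusted p = 0.018, adjusted p = 0.236, limma). Leaving out 1 mouse at a time gave log2 differences from 0.53 to 0.75, with an unadjusted p below 0.05 in 2 of the 4 cases. It was 0.1 without Sox4f/f mouse 1 and 0.083 without Sox4-MKO mouse 2.

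Pdgfrb encodes the receptor for PDGF-B that mural cells and a broader set of perivascular progenitors carry (chr18:61045150-61085061, plus strand). It was the only one of the 10 genes with overlapping genotypes. Its level was 8.99 and 7.66 FPKM in Sox4f/f, and 7.91 and 8.96 FPKM in Sox4-MKO. The highest and the lowest value were both controls, and the means were 8.33 ± 0.94 and 8.43 ± 0.744 FPKM (SD, n = 2 each). The log2 difference was 0.02 ± 0.16 (SE, adjusted p = 0.966, limma).

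Against Pdgfra in the same library, which cancels any scaling of the library, Pdgfrb stood at 2.13 and 1.51 in Sox4f/f and at 1.1 and 1.06 in Sox4-MKO. The ratio of the receptors was thus lower in both Sox4-MKO libraries, where Pdgfra was higher and Pdgfrb overlapped with the controls. The 10 pericyte and smooth muscle genes summed to 230 and 266 FPKM in Sox4f/f and to 216 and 266 FPKM in Sox4-MKO. Of the 10, 1 passed an unadjusted p below 0.05, Cspg4, which was higher, against 7.95% of all rows. No mural marker was called higher without either Sox4f/f mouse or without Sox4-MKO mouse 1. The part of mural cells in the Pdgfrb level was not tested.

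The ligands and modulators of the receptors were examined as a list of 8 genes, all tested. There 3 were higher and 5 lower in Sox4-MKO, with a median log2 difference of -0.09. Of the lower ones 2 had an unadjusted p below 0.05, against 8.28% of all rows. The balance depended on the scaling: with a common sum of FPKM 5 were higher, 2 were called higher and 1 lower, and the median was 0.11. Without Sox4f/f mouse 2 no gene of the list was called lower, and without Sox4-MKO mouse 2 the median was 0.01. Pdgfb, the endothelial ligand of PDGFRB that recruits pericytes, was 25.1 and 27.6 FPKM in Sox4f/f, and 13.2 and 17.1 FPKM in Sox4-MKO. It was lower in both (log2 difference -0.76 ± 0.17, SE, unadjusted p = 0.008, adjusted p = 0.214). Nrp1, a coreceptor for semaphorins and VEGF that also binds PDGF, was 74.5 and 75.1 FPKM against 50.6 and 54.2 FPKM (log2 difference -0.51 ± 0.11, SE, adjusted p = 0.214). Both are abundant in endothelium, whose 10 markers summed to 356 and 441 FPKM in Sox4f/f and to 249 and 318 FPKM in Sox4-MKO, with 2 of the 10 lower at an unadjusted p below 0.05, and 1 without Sox4f/f mouse 2 or with a common sum. Over all rows 8.28% were lower at that p. The part of endothelium in these values was not tested. Lrp1, an endocytic receptor that associates with PDGFRB, was 53.7 and 52.8 FPKM against 59.9 and 49 FPKM and overlapped.

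Ly6a encodes SCA-1, the surface protein most used with CD34 to sort progenitors from the stroma of mouse fat (chr15:74994877-74998031, minus strand). It was the most abundant of the 10 genes in every library. Sox4f/f mice had 90.9 and 79.3 FPKM, and Sox4-MKO mice 128 and 120 FPKM. The genotypes did not overlap, and the spread within each was small. The means were 85.1 ± 8.2 and 124 ± 5.19 FPKM (SD, n = 2 each), a ratio of 1.46, with a log2 difference of 0.54 ± 0.13 (SE, unadjusted p = 0.0094, adjusted p = 0.214, limma). Without Sox4f/f mouse 2 the unadjusted p was 0.067.

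Of the 50-base stretches in Ly6a transcripts, 10% occur also in Ly6c1, Ly6c2, Ly6i or I830127L07Rik, so some fragments could be assigned to either gene. Ly6c1, an endothelial and myeloid surface gene, was 145 and 142 FPKM in Sox4f/f and 168 and 165 FPKM in Sox4-MKO. The ratio of Ly6a to Ly6c1 was 0.627 and 0.56 against 0.757 and 0.729, higher in both Sox4-MKO libraries.

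Cd34 encodes a sialomucin of progenitors that endothelial cells also carry (chr1:194938819-194961279, plus strand). Its level was 21.2 and 22.1 FPKM in Sox4f/f, and 42.1 and 32.8 FPKM in Sox4-MKO. Both Sox4-MKO libraries were higher, and mouse 1 was the higher of them. The means were 21.7 ± 0.637 and 37.4 ± 6.56 FPKM (SD, n = 2 each), a ratio of 1.73, and the log2 difference was 0.75 ± 0.16 (SE, unadjusted p = 0.0071, adjusted p = 0.213, limma). Without Sox4f/f mouse 1 the unadjusted p was 0.05.

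The ratio of Cd34 to Pecam1 was 0.595 and 0.532 in Sox4f/f, and 1.25 and 0.905 in Sox4-MKO. Cd34 was thus higher in Sox4-MKO while Pecam1 overlapped between the genotypes, at 35.6 and 41.6 FPKM against 33.6 and 36.3 FPKM.

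Cd24a encodes a small glycosylphosphatidylinositol-anchored protein that marks early progenitors of white fat and is carried by many other cell types (chr10:43578284-43584265, plus strand). It had the largest log2 difference of the 10 genes and the largest spread. The values were 2.71 and 5.36 FPKM in Sox4f/f, and 39 and 9.7 FPKM in Sox4-MKO. Sox4-MKO mouse 1 stood far above the other 3 libraries. The means were 4.04 ± 1.87 and 24.4 ± 20.7 FPKM (SD, n = 2 each), and the log2 difference was 2.09 ± 0.69 (SE, unadjusted p = 0.032, adjusted p = 0.268, limma). Without Sox4-MKO mouse 1 the log2 difference was 1.14 and the unadjusted p 0.07, and it was 3.04 without Sox4-MKO mouse 2.

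The order of the 4 libraries by Cd24a was their order by the sum of the 8 skeletal muscle markers, which ran from 202 FPKM in Sox4f/f mouse 1 through 747 and 2487 to 14480 FPKM in Sox4-MKO mouse 1. Cd34 and Zfp423 had the same order of libraries. The ratio of Cd24a to the muscle gene Acta1 was 0.0453 and 0.0238 in Sox4f/f, and 0.00865 and 0.0108 in Sox4-MKO. Of the muscle markers 7 of 8 were higher at an unadjusted p below 0.05, against 7.95% of all rows, and none was listed at 0. All 8 stayed higher in every fit, but 2 were called without Sox4f/f mouse 1, 3 without Sox4-MKO mouse 1 and 0 without moderation of the variances. The part of muscle RNA in the Cd24a values was not tested. Of its 50-base stretches, 3.9% are shared with Gm6212, which was listed at 0 in every library.

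**Figure D2:**
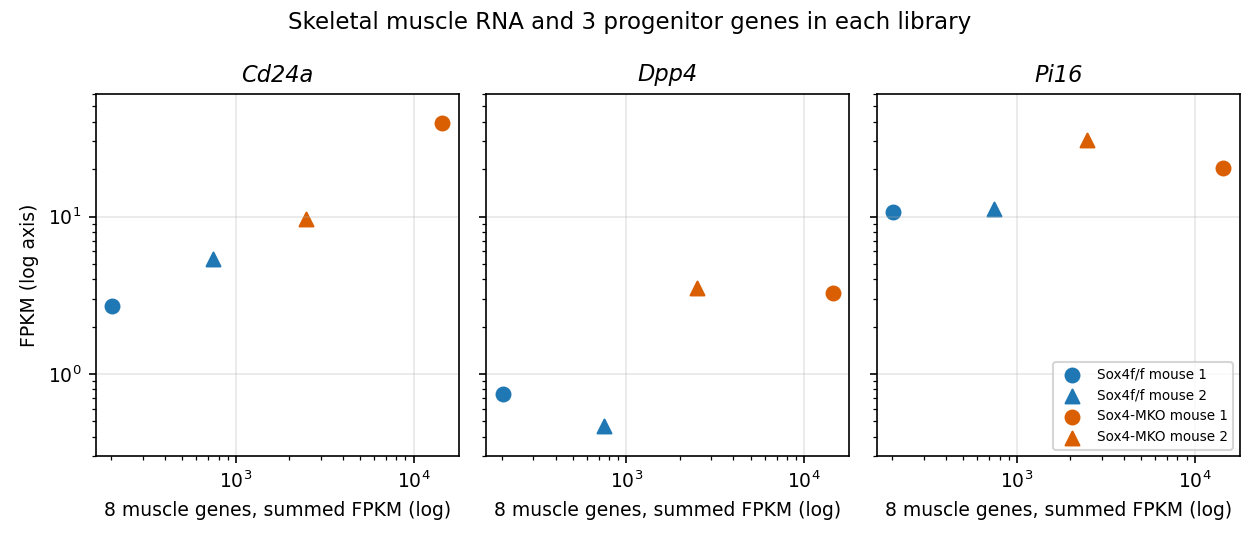
FPKM of Cd24a, Dpp4 and Pi16 against the summed FPKM of the 8 skeletal muscle markers, both on log axes, with 1 point per library coloured by labelled genotype. Cd24a is ordered as the muscle sum in all 4 libraries, whereas Dpp4 and Pi16 are higher in Sox4-MKO mouse 2 (muscle sum 2487 FPKM) than in Sox4-MKO mouse 1 (14480 FPKM). Cd34 and Zfp423, which are not drawn here, have the same order as Cd24a.

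Dpp4 encodes dipeptidyl peptidase 4, a surface protease that cleaves incretins and chemokines and marks multipotent progenitors of the interstitium (chr2:62330073-62412231, minus strand). It was below the limit of 1 FPKM in both controls, at 0.75 and 0.466 FPKM, and stood at 3.27 and 3.53 FPKM in Sox4-MKO. The genotypes were far apart relative to the spread within each. The means were 0.608 ± 0.201 and 3.4 ± 0.183 FPKM (SD, n = 2 each), a ratio of 5.59, and the log2 difference was 1.46 ± 0.22 (SE, unadjusted p = 0.0016, adjusted p = 0.196, limma). It ranked 381 of 12877 rows from the highest difference, a set that it entered only through Sox4-MKO. With no limit on FPKM its unadjusted p was 0.0026 in limma.

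These values rested on an estimated 53 and 30 fragments in Sox4f/f, and on 217 and 301 in Sox4-MKO. Their 95% counting intervals were 0.561 to 0.979 and 0.318 to 0.672 FPKM in Sox4f/f, and 2.85 to 3.73 and 3.14 to 3.94 FPKM in Sox4-MKO. The intervals of the Sox4f/f libraries did not meet those of the Sox4-MKO libraries. They describe counting within a library and hold neither the spread between mice nor the error of the depth. Since Dpp4 is low, its difference depended on the constant added before taking logs, and was 2.33 with 0.1 and 2.50 with 0.01 in place of 1. Every leave-one-out fit kept an unadjusted p below 0.05, with log2 differences from 1.33 to 1.58. The antisense gene Gm13561, which overlaps Dpp4, was listed at 0 in every library.

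Pi16 encodes a secreted or anchored peptidase inhibitor that marks a universal fibroblast state found beside Dpp4 in many tissues (chr17:29317680-29330593, plus strand). Its level was 10.7 and 11.1 FPKM in Sox4f/f, and 20.4 and 30.7 FPKM in Sox4-MKO. The controls were close together and both Sox4-MKO libraries were higher, mouse 2 more so. The means were 10.9 ± 0.319 and 25.6 ± 7.26 FPKM (SD, n = 2 each), a ratio of 2.34, with a log2 difference of 1.13 ± 0.22 (SE, unadjusted p = 0.0049, adjusted p = 0.205, limma). Leaving out 1 mouse at a time gave 0.85 to 1.41, with an unadjusted p below 0.05 in 4 of 4 cases.

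The ratio of Pi16 to Dpp4 was 14.2 and 23.9 in Sox4f/f and 6.25 and 8.7 in Sox4-MKO, so Pi16 outweighed Dpp4 everywhere but less so in Sox4-MKO.

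The promoters of the 10 genes were read for 3 short motifs on both strands, the SOX letters ACAAAG and AACAAT and a palindrome bound by EBF factors (TCCC and GGGA with any 2 bases between them). The 250 bases before the start were taken from RefSeq (GRCm38.p6), which held 8 promoters for 7 of the genes and no entry for Pdgfrb, Ly6a and Cd24a. Dpp4 was the only one of these with AACAAT or the EBF palindrome. It is shown because it also had the largest ratio among the genes with a small spread, beside Pdgfra as a progenitor receptor with no match. Capitals mark the matches, which in Dpp4 (chr2:62412232-62412481, minus strand) begin 201, 115 and 63 bases before the start. The Pdgfra sequence is chr5:75152001-75152250, plus strand.
Dpp4: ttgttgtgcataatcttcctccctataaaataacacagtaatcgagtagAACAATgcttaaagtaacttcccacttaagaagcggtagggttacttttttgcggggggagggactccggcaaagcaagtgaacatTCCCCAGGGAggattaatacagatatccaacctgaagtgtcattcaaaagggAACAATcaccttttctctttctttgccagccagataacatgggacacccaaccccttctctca
Pdgfra: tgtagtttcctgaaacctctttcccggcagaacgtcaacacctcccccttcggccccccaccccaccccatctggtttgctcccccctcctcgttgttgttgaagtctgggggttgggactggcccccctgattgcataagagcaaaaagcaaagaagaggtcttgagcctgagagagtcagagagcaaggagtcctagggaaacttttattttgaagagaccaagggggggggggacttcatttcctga

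Of 32851 promoters of the same length, 9.42% held AACAAT, 16.5% ACAAAG and 0.779% the EBF palindrome. Pi16 held ACAAAG on the reverse strand, 30 bases before its RefSeq start. That window (chr17:29318632-29318881) lies inside the span given for Pi16 above. No motif was found for Cd34, Pdgfra, Icam1, Dlk1 and both promoters of Zfp423. A match is a run of letters in a window and was not tied to binding here.

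Genes that accompany Dpp4 in interstitial progenitors were listed as 10 further genes, of which 7 reached the FPKM limit. All 7 were higher in Sox4-MKO with no overlap (Anxa3 by less than its printed digits show), against 21.7% of all rows. At an unadjusted p below 0.05, 6 of them were higher, against 7.95% of all rows. The median log2 difference was 0.94 against -0.05 over all rows. Wnt2, Bmp7 and Sema3e were below the limit, at no more than 0.386 FPKM. Sema3c, a secreted semaphorin, was 1.68 and 1.67 FPKM in Sox4f/f, and 7.59 and 6.23 FPKM in Sox4-MKO. That is a ratio of 4.13 with almost no spread in the controls (log2 difference 1.56 ± 0.19, SE, unadjusted p = 0.00057, adjusted p = 0.191, limma). Mfap5, a microfibril glycoprotein, was 6.44 and 4.6 FPKM against 13.9 and 14.1 FPKM (log2 difference 1.22 ± 0.19, SE, adjusted p = 0.196). Anxa3, a calcium-dependent membrane-binding protein, was the member outside the unadjusted limit, at 14.5 and 11.7 FPKM against 14.5 and 17.4 FPKM (log2 difference 0.27 ± 0.18, SE, adjusted p = 0.492).

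Icam1 encodes an adhesion molecule for leukocytes that committed preadipocytes and activated endothelium carry (chr9:21015985-21028817, plus strand). It was 3.99 and 4.39 FPKM in Sox4f/f, and 3.27 and 3.63 FPKM in Sox4-MKO. Both Sox4-MKO libraries lay below both controls by a small margin. The means were 4.19 ± 0.284 and 3.45 ± 0.257 FPKM (SD, n = 2 each), a ratio of 0.823, and the log2 difference was -0.22 ± 0.17 (SE, unadjusted p = 0.26, adjusted p = 0.548, limma), which did not pass. With the libraries rescaled to a common sum of FPKM, which moved the median of all rows from -0.05 to 0.14, the difference was -0.05.

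The ratio of Icam1 to Ptprc, the CD45 gene of all leukocytes, was 0.895 and 0.982 in Sox4f/f, and 0.479 and 0.461 in Sox4-MKO. Ptprc itself was 4.46 and 4.47 FPKM against 6.82 and 7.87 FPKM. The ratio to the endothelial gene Pecam1 differed less, at 0.112 and 0.106 against 0.0972 and 0.1.

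The 8 genes listed with Icam1 in committed preadipocytes were all tested and split, with 5 higher and 3 lower in Sox4-MKO and a median log2 difference of 0.07. At an unadjusted p below 0.05, 1 was higher and 2 lower, but none was lower without either Sox4f/f mouse. Over all rows 7.95% were higher and 8.28% lower at that p. The median of the list was 0.28 with a common sum, 0.22 without the first Sox4-MKO mouse and -0.16 without the second. Col15a1, a basement membrane collagen, was 17.8 and 14.6 FPKM in Sox4f/f, and 32.1 and 25.9 FPKM in Sox4-MKO (log2 difference 0.80 ± 0.18, SE, adjusted p = 0.214). Apoe, a lipid carrier, was 2177 and 2155 FPKM against 1345 and 1414 FPKM (log2 difference -0.65 ± 0.12, SE, adjusted p = 0.196). Fabp4, the fatty acid binding protein of adipocytes and capillaries and the most abundant of the list, overlapped at 5801 and 6334 FPKM against 5416 and 7518 FPKM. Several of these genes are also expressed strongly by mature adipocytes, so in whole tissue the list does not measure committed progenitors alone.

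Dlk1 encodes PREF-1, an imprinted transmembrane protein of preadipocytes whose shed domain inhibits adipogenesis (chr12:109452823-109463336, plus strand). Its level was 2.2 and 2.94 FPKM in Sox4f/f, and 1.99 and 1.73 FPKM in Sox4-MKO. The Sox4-MKO values were lower, but the nearest values of the genotypes were close. The means were 2.57 ± 0.521 and 1.86 ± 0.186 FPKM (SD, n = 2 each), a ratio of 0.724, with a log2 difference of -0.31 ± 0.22 (SE, unadjusted p = 0.21, adjusted p = 0.508, limma), which did not pass. Between 117 and 165 estimated fragments lay behind each value.

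Of the 8 genes of the Dlk1 imprinted cluster and its targets, Dlk1 included, 6 were tested, 3 were higher and 3 lower, and the median log2 difference was -0.01. It was 0.15 with a common sum, and ran from -0.22 without Sox4f/f mouse 1 or Sox4-MKO mouse 1 to 0.23 without Sox4-MKO mouse 2. Meg3, the maternally expressed RNA of the cluster, was 26.9 and 26.4 FPKM in Sox4f/f, and 32.3 and 19.4 FPKM in Sox4-MKO, and overlapped. Notch1, whose signalling DLK1 modulates, was the only one with an unadjusted p below 0.05, against 8.28% of all rows that were lower at it. Notch1 was 10.4 and 10.5 FPKM against 7.2 and 6.98 FPKM (log2 difference -0.50 ± 0.14, SE, adjusted p = 0.232). No gene of the list was called lower with a common sum, without either Sox4f/f mouse or without Sox4-MKO mouse 2. Rtl1 was listed at 0 in every library, and Dio3 at no more than 0.124 FPKM. Sox9, which DLK1 induces to block adipogenesis, was 0.914 and 1.17 FPKM against 2.43 and 1.08 FPKM and overlapped; this gene was named after its values were seen.

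Zfp423 was 3.01 and 3.57 FPKM in Sox4f/f, and 5.42 and 4.86 FPKM in Sox4-MKO (chr8:87661810-87959595, minus strand). Both Sox4-MKO libraries were higher, with a like spread in each genotype. The means were 3.29 ± 0.396 and 5.14 ± 0.394 FPKM (SD, n = 2 each), a ratio of 1.57, with a log2 difference of 0.52 ± 0.18 (SE, unadjusted p = 0.036, adjusted p = 0.273, limma). Its unadjusted call was the weakest of the 7: none of the 4 leave-one-out fits kept it, and 8 of all 16 alternatives did.

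ZFP423 is known to bind EBF2 and to hold back thermogenic genes, and whether it did so in this tissue was not tested. The ratio of Zfp423 to Ebf2 was 0.123 and 0.139 in Sox4f/f, and 0.317 and 0.274 in Sox4-MKO, with no overlap. Ebf2, a factor of brown adipocyte identity, was 24.4 and 25.6 FPKM against 17.1 and 17.8 FPKM (log2 difference -0.50 ± 0.12, SE, adjusted p = 0.219). Zfp521, the paralogue of Zfp423, at 0.865 and 0.941 FPKM against 1.74 and 1.34 FPKM, was also higher without overlap but had an unadjusted p of 0.14 in limma. It reached the FPKM limit only through Sox4-MKO (means 0.903 FPKM in Sox4f/f and 1.54 FPKM in Sox4-MKO), so its place among the tested genes follows in part from its difference.

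The 20 fate factors, Zfp423 included, gave 16 tested genes, with 5 higher (Zfp521 among them) and 11 lower in Sox4-MKO and a median log2 difference of -0.19. With no limit on FPKM 19 were tested, 8 were higher and the median was -0.08. At an unadjusted p below 0.05, 2 of the 16 were higher and 4 lower, against 7.95% and 8.28% of all rows. With a common sum of FPKM 8 were higher, 3 at that limit and none lower at it, and the median was 0.01, so the lower calls depended on the scaling. Without Sox4f/f mouse 1 there was 1 lower call and without Sox4f/f mouse 2 there was none, and each leave-one-out fit had 1 higher call. Cebpd, an early C/EBP factor of adipogenesis, was 2.68 and 2.99 FPKM in Sox4f/f, and 7.72 and 8.78 FPKM in Sox4-MKO (log2 difference 1.27 ± 0.17, SE, unadjusted p = 0.0009, adjusted p = 0.191). Cebpb, its early partner, was 83.2 and 123 FPKM against 46 and 62.7 FPKM (log2 difference -0.90 ± 0.26, SE, adjusted p = 0.241). The late factors Cebpa and Pparg, which mature adipocytes express strongly, were lower without overlap, Cebpa at 363 and 346 FPKM against 266 and 277 FPKM (adjusted p = 0.241) and Pparg at 197 and 155 FPKM against 127 and 153 FPKM (adjusted p = 0.429). Tcf21 was listed at 0 in every library.

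**Figure D3:**
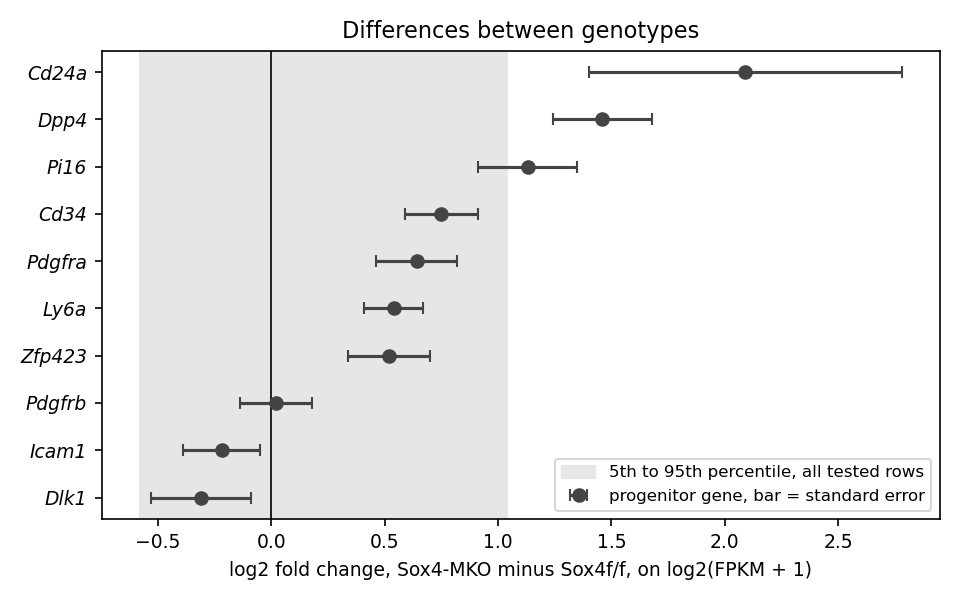
Log2 difference of FPKM + 1 between Sox4-MKO-labelled and Sox4f/f libraries for each of the 10 genes, with the limma standard error as bars (n = 2 mice per genotype) and the 5th to 95th percentile of all 12877 tested rows, -0.58 to 1.04, as a shaded band. Differences run from -0.31 (Dlk1) to 2.09 (Cd24a), and Cd24a, Dpp4 and Pi16 lie above the band.

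**Figure D4:**
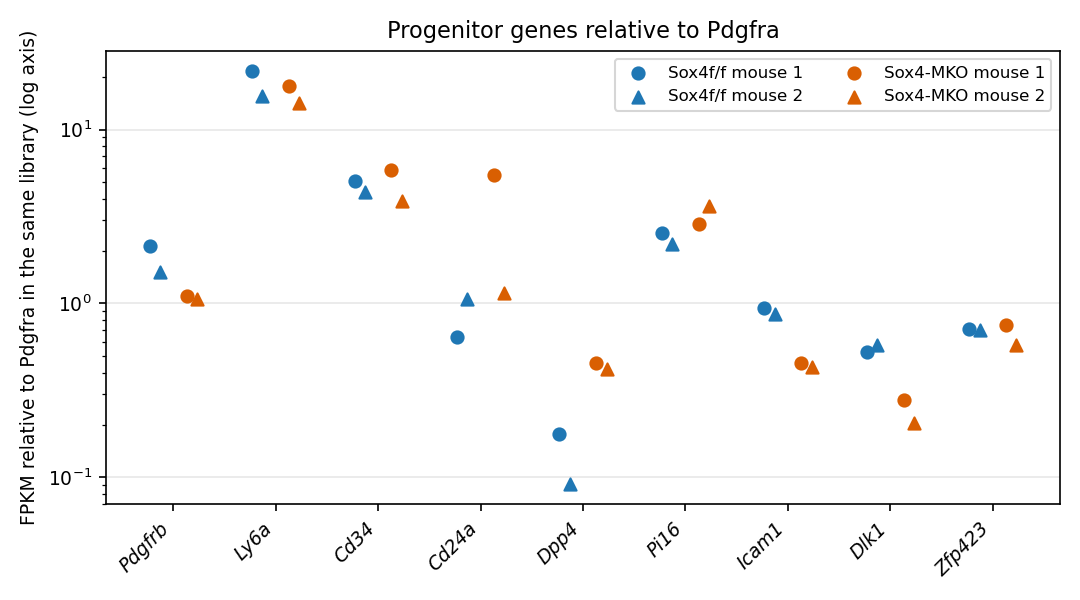
Ratio of the FPKM of 9 progenitor genes to that of Pdgfra in the same library, on a log axis, with 1 point per mouse. Dpp4, Pi16 and Cd24a stand higher against Pdgfra in both Sox4-MKO libraries, Pdgfrb, Dlk1 and Icam1 lower, and Ly6a, Cd34 and Zfp423 overlap. Pdgfra itself is higher in both Sox4-MKO libraries.

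Set against Pdgfra in the same library, the 9 other genes formed 3 groups. Dpp4 stood at 0.178 and 0.0918 of Pdgfra in Sox4f/f, and at 0.456 and 0.418 in Sox4-MKO. Pi16 stood at 2.53 and 2.19, and at 2.85 and 3.64. Cd24a stood at 0.643 and 1.06, and at 5.44 and 1.15. These 3 were higher against Pdgfra without overlap, narrowly so for Cd24a.

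Icam1 stood at 0.946 and 0.866 of Pdgfra in Sox4f/f, and at 0.456 and 0.43 in Sox4-MKO. Dlk1 stood at 0.522 and 0.579, and at 0.278 and 0.205. These and Pdgfrb were lower against Pdgfra without overlap. Pdgfra itself was higher in Sox4-MKO, with a ratio of means of 1.68, so a gene with no difference would tend to stand lower on this scale. Ly6c1, itself higher in Sox4-MKO, also stood lower, at 34.3 and 27.9 against 23.5 and 19.5. The share of all rows that stood lower on this scale was not taken. Ly6a (21.6 and 15.6 against 17.8 and 14.2), Cd34 (5.03 and 4.36 against 5.87 and 3.89) and Zfp423 (0.712 and 0.703 against 0.756 and 0.576) overlapped. With 2 mice per genotype these ratios are descriptions and carry no test.

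Fibroblast matrix genes were higher beside the progenitor genes. Of the 12 listed, all 12 were tested and higher in Sox4-MKO with no overlap, 11 at an unadjusted p below 0.05, with a median log2 difference of 0.94. Over all rows 21.7% were higher without overlap and 7.95% at that p. All 12 stayed higher in every fit, and 7 were called without Sox4f/f mouse 2 and 7 without moderation of the variances. Fn1, the fibronectin gene, was 7.09 and 8.9 FPKM in Sox4f/f, and 29.1 and 21.9 FPKM in Sox4-MKO (log2 difference 1.55 ± 0.20, SE, adjusted p = 0.191). Col3a1, a fibrillar collagen, was 85.8 and 91.1 FPKM against 242 and 221 FPKM (log2 difference 1.38 ± 0.12, SE, unadjusted p = 0.00012, adjusted p = 0.191). Dcn, the proteoglycan decorin and the most abundant of them, was 118 and 155 FPKM against 267 and 239 FPKM.

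The 8 fibroblast markers, most of them also in that matrix list, summed to 877 and 993 FPKM in Sox4f/f and to 1403 and 1677 FPKM in Sox4-MKO. Relative to the summed Col1a1, Col1a2 and Col3a1 of the same library, only Dpp4 of the 10 genes was higher in both Sox4-MKO libraries, at 0.00467 and 0.00284 against 0.00756 and 0.00883. Pi16 and Cd24a overlapped on that scale, and the other 7 genes were lower. The collagens themselves were higher in Sox4-MKO, with ratios of means of 2.56, 2.45 and 2.62, so a gene that rose less would tend to stand lower. Fbn1, itself higher with a ratio of 2.06, was also lower on that scale, and Sema3c was higher. The share of all rows on that scale was not taken. The part of fibroblast content in the higher progenitor genes was not tested.

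Markers of other cells differed beside these genes as well. The 8 macrophage markers were all higher in Sox4-MKO without overlap, 6 at an unadjusted p below 0.05, and summed to 126 and 198 FPKM in Sox4f/f and to 268 and 273 FPKM in Sox4-MKO. Over all rows 21.7% were higher without overlap and 7.95% at that p. The 8 stayed higher in every fit, but 1 was called without Sox4f/f mouse 1, 2 without the first Sox4-MKO mouse, 3 without the second and 0 without moderation. The 8 brown adipocyte markers summed to 7698 and 7582 FPKM against 3815 and 4640 FPKM, with 6 of 8 lower at that limit (8.28% of all rows) and 3 without Sox4f/f mouse 1. The lymphocyte list summed to 10.1 and 7.89 FPKM against 9.48 and 14.7 FPKM, but it holds Ptprc, which all leukocytes carry and which supplied much of the sum. Its T cell gene Cd3e was 1.56 and 0.625 FPKM against 0.925 and 2.56 FPKM and overlapped. The 6 neutrophil markers summed to 3.03 and 3.5 FPKM against 5.96 and 12 FPKM, with Ly6g listed at 0 in every library. The part of these cells in the levels of the 10 genes was not tested.

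**Figure D5:**
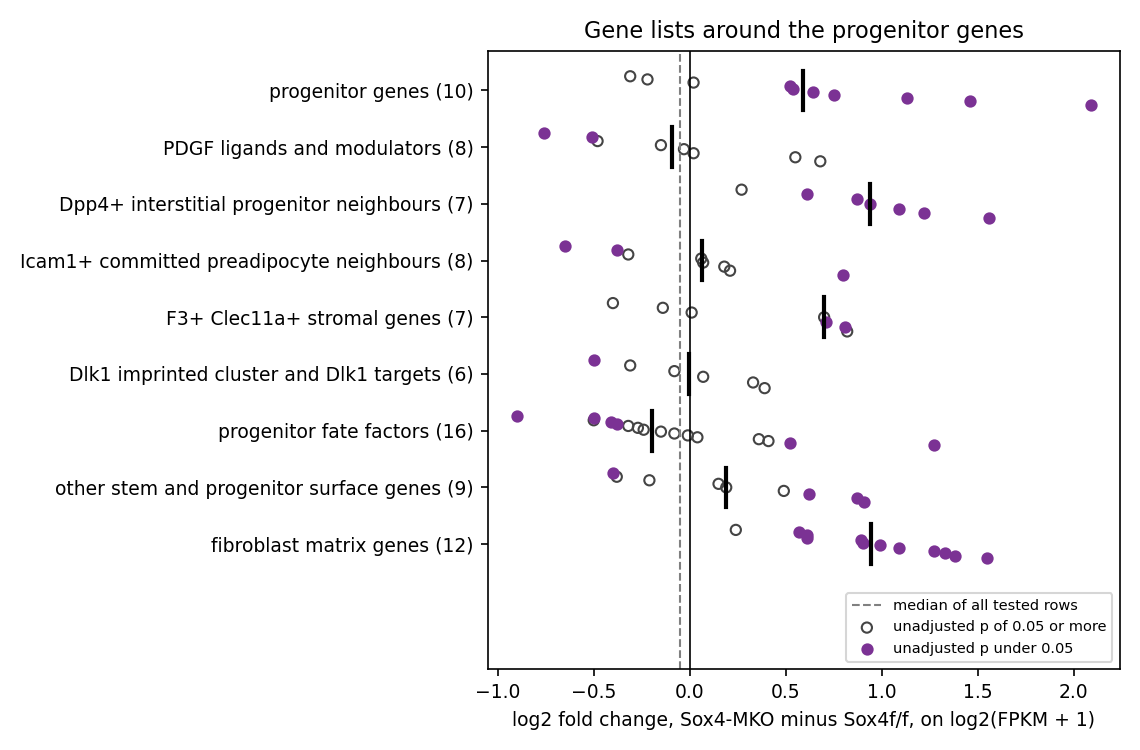
Log2 differences between Sox4-MKO-labelled and Sox4f/f libraries of the tested genes in each list, with 1 point per gene (filled where the unadjusted p was under 0.05), a bar at the list's median and a dashed line at the median of all tested rows. The tested genes of each list are counted in parentheses. The medians are 0.59 for the 10 progenitor genes, 0.94 for the interstitial and for the matrix list, 0.70 for the F3 list and between -0.19 and 0.19 for the other lists. With no limit on FPKM the median of the F3 list is 0.42. With a common sum of FPKM the negative medians turn to 0.11 (PDGF), 0.15 (Dlk1) and 0.01 (fate factors).

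A different stromal population with F3 and Clec11a, described as one that restrains adipogenesis, was represented by 8 genes, of which 7 were tested. In Sox4-MKO 5 were higher and 2 lower, 2 of the higher ones at an unadjusted p below 0.05, against 7.95% of all rows. The median log2 difference of the list was 0.70. That median was the value of Vit, which reached the FPKM limit only through Sox4-MKO (means 0.348 in Sox4f/f and 1.19 FPKM in Sox4-MKO). With no limit on FPKM, 8 genes were tested and the median was 0.42. The median was 0.28 without Sox4-MKO mouse 1. There were 0 calls without either Sox4f/f mouse or without moderation, and 4 without Sox4-MKO mouse 2 or with a common sum. The defining gene F3, which encodes tissue factor, was 38.8 and 21.7 FPKM in Sox4f/f, and 44.4 and 15.5 FPKM in Sox4-MKO, so its spread within each genotype exceeded any difference. Clec11a, at 0.707 to 1.1 FPKM, overlapped as well. Gdf10, a ligand of the BMP family, was 1.27 and 1.16 FPKM against 3.43 and 2.38 FPKM (log2 difference 0.81 ± 0.23, SE, adjusted p = 0.243). Gas6, a ligand of TAM receptors, was 18.3 and 18.8 FPKM against 36.9 and 25.8 FPKM (log2 difference 0.71 ± 0.20, SE, adjusted p = 0.241). Mgp, an inhibitor of calcification and the most abundant of the list, overlapped at 46 and 78.1 FPKM against 61.9 and 58.9 FPKM.

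The remaining list held 10 other surface genes used to sort stem and progenitor cells, of which 9 were tested. There 6 were higher and 3 lower in Sox4-MKO, 3 and 1 of them at an unadjusted p below 0.05, against 7.95% and 8.28% of all rows. The median log2 difference was 0.19. It was 0.12 without Sox4f/f mouse 1, 0.36 without Sox4f/f mouse 2 and 0.40 with a common sum. Without Sox4-MKO mouse 1, 1 gene was called higher, and none was called lower with a common sum or without either Sox4f/f mouse. Thy1, which encodes CD90 of mesenchymal cells, was 4.16 and 6.46 FPKM in Sox4f/f, and 10.4 and 10.8 FPKM in Sox4-MKO (log2 difference 0.91 ± 0.23, SE, adjusted p = 0.222). Pdpn, which encodes the mucin-like protein podoplanin, was 1.17 and 0.871 FPKM against 3.02 and 2.39 FPKM (log2 difference 0.87 ± 0.23, SE, adjusted p = 0.228). The tetraspanin gene Cd81, the most abundant of the list, was lower, at 305 and 297 FPKM against 218 and 239 FPKM (log2 difference -0.40 ± 0.11, SE, adjusted p = 0.241). The integrin gene Itgb1 overlapped at 85.3 and 79 FPKM against 98.3 and 84.9 FPKM.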

How the data were processed

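RNA sequencing libraries of BAT from 4 mice were used, 2 per genotype, grouped by title and genotype in the labels. Per the labels RNA was purified on columns and made into a stranded mRNA library for paired-end sequencing, whereas the methods name TRIzol and TruSeq. The authors deposited 1 FPKM value per gene and library, on 55387 rows with 55287 symbols. Fragments were thus already scaled by transcript length and mapped total, and the number of fragments is not in the values. The submitters' processing notes list Cufflinks 2.1.1, Cuffdiff and mm10 without their roles. The aligner, the annotation and the strand setting of the counting are not given in the sources used here. Counts were not recovered, so no count test was run.

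limma 3.58.1 in R 4.3.3 was used on log2(FPKM + 1). The model held genotype alone, and the prior variance followed a trend with mean level. Rows with an averaged FPKM above 1 in a genotype (12877) were tested, and the two-sided p-values were adjusted by the method of Benjamini and Hochberg. A gene was called at an adjusted p below 0.05. The same limit on the unadjusted p was used for counts, and the share of all rows that passed it is given with the count of the 10 genes and of the lists. Nothing in the labels beyond the word mice says how independent the samples are. The p-values rest on the spread between these animals, moderated toward that of genes of like level. The controls were littermates of the Sox4-MKO mice, but which mice shared a litter is not given.

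The 10 genes and all gene lists were chosen with earlier results of these data known, so no list is independent evidence. In each list of related genes the text names the 2 genes with the highest mean FPKM and the 2 with the largest log2 difference among those without overlap and with an unadjusted p below 0.05. Ebf2, Zfp521, Sox9, Clec11a, Vit, Ptprc, Pecam1, Acta1 and Ly6c1 and the genes at 0 were named for the ratios, for contrast or after their values were seen.

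Coordinates and transcripts came from GENCODE M21 (GRCm38, the assembly of mm10), matched by symbol, and promoters from RefSeq. Depth was estimated from the lowest values of single-transcript genes (1500 nt or longer), as FPKM × kb per fragment, which were 0.0744 and 0.0827 in Sox4f/f and 0.0794 and 0.0617 in Sox4-MKO. The search was run from 8 starts, of which 7 and 8 reached the value used in Sox4f/f mice 1 and 2, and 7 and 5 in Sox4-MKO mice 1 and 2. The depth of Sox4-MKO mouse 2 was thus the least stable. Fragment numbers and their 95% intervals follow from these depths, are approximate and cover counting error only. Plots were drawn with matplotlib 3.10.9. In all, 16 alternatives were fitted. Other assays of the study were not analysed here. The Schwann cell marker list is not reported here.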

Additional observations from a re-analysis of the deposited data

How the results depend on the processing

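No progenitor gene passed the adjusted limit in any of the 16 alternatives. Over all rows 0 passed, and 0 to 5 passed when 1 mouse was left out, with 1 without Sox4f/f mouse 1, 5 without Sox4f/f mouse 2, 0 without the first Sox4-MKO mouse and 1 without the second. At an unadjusted p below 0.05 the 7 progenitor genes became 3 to 5 when 1 mouse was left out, 3 without Sox4f/f mouse 1 and 4 without Sox4f/f mouse 2, and 3 without moderation of the variances. The 2090 rows called at that limit over all genes became 849 to 2394 when 1 mouse was left out, 849 without Sox4f/f mouse 1 and 1070 without Sox4f/f mouse 2. A leave-one-out fit has 1 library in an arm, which is assumed to vary like the others.

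Pdgfrb had no stable sign: its log2 difference of 0.02 became -0.09 without Sox4f/f mouse 2 (up to 0.12 in the other leave-one-out fits), -0.06 without Sox4-MKO mouse 2, -0.0023 with a common median and -0.0045 after quantile normalization. Sox4, at 0.20, became -0.07 without Sox4f/f mouse 2 and -0.32 without Sox4-MKO mouse 2, and reached 0.71 in another leave-one-out fit. The other 9 progenitor genes kept their direction in every alternative that held them. The limit of 5 FPKM left 7 progenitor genes and dropped Dpp4, Dlk1 and Icam1. Rescaling to a common sum turned the 1024 higher and 1066 lower rows at the unadjusted limit into 1884 and 329, and the progenitor genes stayed at 7 higher and 0 lower.

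The numbers of the mice are not said to mark a shared litter or to pair them, and the mouse 1 minus mouse 2 differences of the genotypes correlated at -0.0122 over 12877 genes, which are not independent replicates. With the mouse number as a replicate block, 6 progenitor genes passed the unadjusted limit, Zfp423 being the one lost, and 1908 rows did over all genes, with 0 after adjustment. Depth limits Dpp4 in controls, where 30 to 53 estimated fragments lay behind a value, and Sox4, with 59 to 238.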

Other observations

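The general adipocyte markers, which include Adipoq and Plin1, summed to 8585 and 7929 FPKM in Sox4f/f and to 6685 and 10393 FPKM in the Sox4-MKO-labelled ones, and overlapped. Of the 8 markers, 2 were higher and 2 lower at an unadjusted p below 0.05, against 7.95% and 8.28% of all rows. The median log2 difference was -0.08. The lower calls went to 0 with a common sum, quantile normalization, a replicate block or no limit on FPKM, and without either Sox4f/f mouse. The median was 0.13 with a common sum, 0.15 after quantile normalization, 0.19 without the first Sox4-MKO mouse and -0.30 without the second. Retn, the resistin gene of white adipocytes, was the member with the largest difference, at 137 and 111 FPKM against 425 and 510 FPKM (log2 difference 1.91 ± 0.17, SE, adjusted p = 0.191, limma). Lep, the leptin gene, was 11.8 and 21.5 FPKM against 47.4 and 38.3 FPKM (log2 difference 1.36 ± 0.31, SE, adjusted p = 0.214). Both were named after their values were seen.

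The 5 mesothelial markers summed to no more than 1.25 FPKM in any library, with Upk3b and Upk1b listed at 0 throughout.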
